A study of Mus musculus with 6 samples.

Results

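In mouse granulosa cells, 995 RUNX1-bound regions were called 6 h after an ovulatory dose of hormone, not called before it, and placed near the ends of neighbouring protein-coding genes. They were chosen from 17190 regions in which peaks of both 6 h libraries overlapped by at least 1 bp. A member was under 2000 bp wide, overlapped no peak of either 0 h library, and had its summit within 1 kb of the ends of at least 2 different protein-coding genes of the RefSeq table on GRCm38. Members made up 5.79% of the replicated 6 h regions, and the values that chose them were the peak calls themselves, so presence at 6 h and absence at 0 h are a description of the choice. Of the 995, 974 lay near 2 coding genes, 20 near 3, and 1 near 25. They are called members or paired-gene regions below, and regions with the same placing that the rule leaves out because they overlap a 0 h peak are always named with that peak.

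RUNX1 was mapped by ChIP-seq, in which DNA bound by a protein is enriched with an antibody and sequenced, and the question the design addresses is where RUNX1 contacts chromatin before and during ovulation. The animals were CBA x C57BL/6 F1 mice aged 21 days. All were given 5 IU of eCG (equine chorionic gonadotropin), which drives follicle growth. The 6 h group had 2 RUNX1 libraries of peri-ovulatory granulosa cells, collected 6 h after a further 5 IU of hCG (human chorionic gonadotropin), injected 46 h after eCG to stand in for the ovulatory hormone surge. The 0 h group had 2 RUNX1 libraries of pre-ovulatory granulosa cells. One treatment text, which describes collection at 6 h, is attached to every sample, and the 0 h group was taken from the titles, the cell type and the time-point label. There was 1 pooled input for each time point. The labels do not say whether the replicates came from separate animals, so the spread between them may be technical. Peak lists hold no expression values, so the cell type could not be checked against marker genes. The lists held 948 and 3135 peaks at 0 h and 18761 and 28671 peaks at 6 h, and the number of reads behind each list was not given. A missing 0 h peak is therefore the absence of a call in a much shorter list, and the signal below the limit is not in the lists.

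Granulosa cells are the somatic cells around the oocyte, and the ovulatory hormone surge switches them from growth towards ovulation and luteinisation. RUNX1 is a transcription factor that binds DNA together with its partner CBFB, at a short core read as TGTGGT or, less often, TGCGGT. Many mammalian genes are arranged head to head: they are transcribed away from each other from starts that lie close together, often in a GC-rich stretch called a bidirectional promoter. Such pairs are known to be rich in genes that most cells need, such as those for DNA repair, mitochondria and protein synthesis.

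The letters between the genes of a few head-to-head members are printed here, and the stretches were not aligned with each other. The stretches below run from the annotated end of 1 gene to that of the other, so they hold no base of either gene. They are given 5′ to 3′ on the plus strand of GRCm38.p6 from RefSeq promoter sequences, with any RUNX core (either form, on either strand) in capitals. The first 3 belong to the members with the highest fold enrichment for which the stretch is at most 300 bases and fully in the table. The other 6 were chosen after their values were seen, as the next-ranking members with a RUNX core in the stretch.
Idh1/Pikfyve: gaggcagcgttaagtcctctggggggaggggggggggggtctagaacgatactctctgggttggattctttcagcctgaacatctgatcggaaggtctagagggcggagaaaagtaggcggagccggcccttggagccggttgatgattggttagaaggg
Mad1l1/Nudt1: gaaaacggcccgt
Mrpl40/Hira: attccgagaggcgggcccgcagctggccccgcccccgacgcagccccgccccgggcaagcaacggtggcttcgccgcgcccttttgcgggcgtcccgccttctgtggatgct
Ubxn6/Hdgfl2: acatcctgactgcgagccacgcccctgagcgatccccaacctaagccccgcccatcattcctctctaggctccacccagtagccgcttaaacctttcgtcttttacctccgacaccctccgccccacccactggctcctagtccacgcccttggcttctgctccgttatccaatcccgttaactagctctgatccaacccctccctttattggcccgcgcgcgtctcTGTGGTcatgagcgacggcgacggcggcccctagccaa
Xab2/Pet100: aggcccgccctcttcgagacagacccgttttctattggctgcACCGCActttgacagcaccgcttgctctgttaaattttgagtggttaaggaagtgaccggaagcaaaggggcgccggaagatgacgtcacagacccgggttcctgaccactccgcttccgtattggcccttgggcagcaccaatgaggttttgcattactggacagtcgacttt
Thap4/Atg4b: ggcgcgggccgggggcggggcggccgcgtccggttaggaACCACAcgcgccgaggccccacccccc
Txndc16/Gpr137c: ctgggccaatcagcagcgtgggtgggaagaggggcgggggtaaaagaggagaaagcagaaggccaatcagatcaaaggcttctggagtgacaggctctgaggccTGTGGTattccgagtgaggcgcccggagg
Slx1b/Bola2: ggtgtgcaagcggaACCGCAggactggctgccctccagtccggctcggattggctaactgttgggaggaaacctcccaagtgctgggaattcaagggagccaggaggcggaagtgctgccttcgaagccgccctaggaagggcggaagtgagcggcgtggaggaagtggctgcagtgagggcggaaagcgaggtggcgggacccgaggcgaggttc
Rgl1/Arpc5: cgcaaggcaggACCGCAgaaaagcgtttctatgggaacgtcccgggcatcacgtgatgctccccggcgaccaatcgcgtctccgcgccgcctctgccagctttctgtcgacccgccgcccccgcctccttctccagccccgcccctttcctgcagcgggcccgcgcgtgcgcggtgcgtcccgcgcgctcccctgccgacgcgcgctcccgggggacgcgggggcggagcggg

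Idh1 and Pikfyve had 160 bases between them at chr1:65186480-65186639, Mad1l1 and Nudt1 had 13 at chr5:140321609-140321621, and Mrpl40 and Hira had 112 at chr16:18876638-18876749. None of these 3 held a RUNX core, and in all 3 the summit lay outside the stretch, inside 1 of the genes. The Ubxn6 and Hdgfl2 stretch, at chr17:56079334-56079598, held TGTGGT at bases 228 to 233, and the summit was at base 232. In the Txndc16 and Gpr137c stretch, at chr14:45219552-45219684, the core was at bases 105 to 110 and the summit at base 106. In the Thap4 and Atg4b stretch, at chr1:93754839-93754904, the core was at bases 40 to 45 and the summit at base 53. For Xab2 and Pet100, at chr8:3621335-3621550, the core was at bases 43 to 48 and the summit at base 92. For Slx1b and Bola2, at chr7:126695784-126695999, the core was at bases 15 to 20 and the summit at base 66. For Rgl1 and Arpc5, at chr1:152766309-152766541, the core was at bases 12 to 17 and the summit lay just outside the stretch, inside Rgl1. Over the 294 head-to-head members with a fully covered stretch of up to 300 bases and no other gene in it, the median length was 71.5 bases and the median GC content was 64.7%. A RUNX core was found in 18 of these stretches (6.12%) and an ETS core (CCGGAAG, the site read by ETS-family factors) in 32 (10.9%). Other stretches of these lengths were not counted, so neither share can be called high or low. No match says only that these letters are not in the stretch.

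The arrangement of the genes, which the rule did not use, was mostly head to head. Strand came from the promoter table, which covered 17492 of 21900 coding genes, and both strands were known for 748 members. Of these, 547 had head-to-head starts (73.1%, 95% Clopper-Pearson interval 69.8 to 76.3). In 171 members the start of 1 gene met the far end of the other, in 19 the starts lay on the same strand, and in 11 the far ends met tail to tail. For 247 members at least 1 strand was not in the table. All intervals given here cover counting error only, and members that share a gene are not independent: 172 members shared a gene with another member.

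The word "between" held for a minority of the members. The summit lay between the paired genes in 183 of 995 (18.4%, interval 16.0 to 20.9), inside 1 gene in 672 (67.5%), inside both overlapping genes in 129 (13.0%), and outside both on 1 side in 11 (1.11%). The table holds whole genes, so exons, introns and untranslated parts were not separated. Among the 547 head-to-head members, the median gap between gene ends was 41 bp, with quartiles of -113 and 133.5 bp, where a negative gap means that the genes overlap at their starts. Genes overlapped in 186 of them (34.0%), lay 0 to 300 bp apart in 303 (55.4%) and were farther apart in 58 (10.6%). The summit sat a median of 91 bp from the nearer start and 232 bp from the farther one. Measured along the nearer gene, it lay a median of 33 bp downstream of the start and within 200 bp of it in 77.1% of head-to-head members. The 4016 6 h-only regions near the start of a single coding gene had a median of 96 bp downstream, with 58.5% within 200 bp. A head-to-head member has a pair of starts and the nearer was taken, which by itself shortens the distance, so the 2 sets are not like for like. Enrichment followed the gap little: over the 547 members, Spearman's rho between gap and mean percentile of fold was -0.030, as a description across regions that share libraries.

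**Figure D1:**
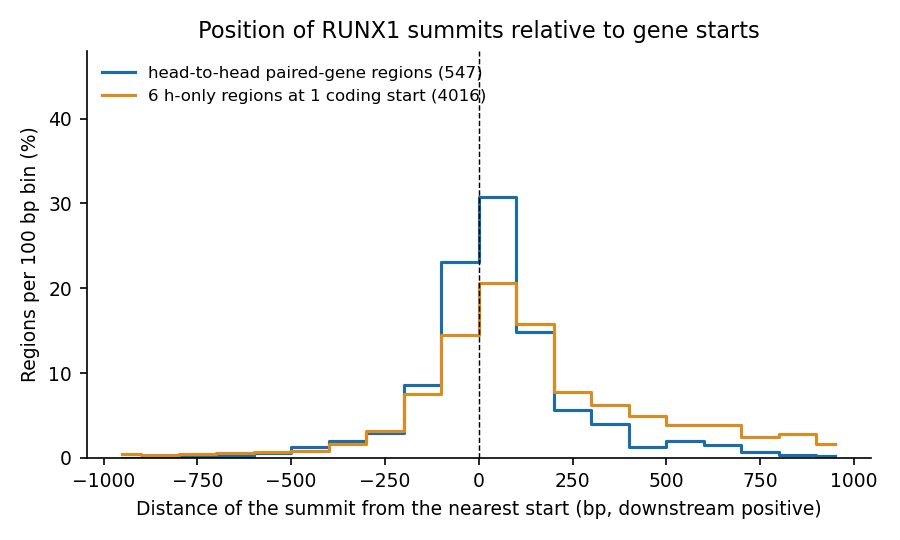
Summit position relative to the nearer annotated start (horizontal axis, bp, positive values lie inside the gene) as the percentage of regions per bin (vertical axis), for 547 head-to-head paired-gene regions and for 6 h-only regions at the start of 1 coding gene. The medians are 33 and 96 bp downstream, and the nearer of a pair of starts was taken only for the head-to-head regions.

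Fold enrichment is the authors' ratio of ChIP signal to local background at the summit. It depends on each library, so ranks within a list are used below, as percentiles in which 100 is the highest fold. Among members the fold ran from 2.96 through a median of 7.85 to 27.7 in 6 h replicate 1, and from 3.84 through 10.97 to 44.03 in replicate 2. Replicate 2 was higher in 883 of 995 members (88.7%), beside 92.3% of all replicated regions. The pileup at the summit, in fragments on each list's own scale, was recovered from the fold and the p-value. It ranged from 21 to 217 with a median of 50 in replicate 1, and from 22 to 164 with a median of 57 in replicate 2. The median local background was 5.63 and 4.35.

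The members kept much of their order between the libraries. Over the 995 members, Pearson's r of log2 fold between replicates was 0.77 and Spearman's rho was 0.75, as a description across regions that were chosen for having a peak in both. Replicate summits lay a median of 45 bp apart, and within 100 bp in 777 members (78.1%). Above the 50th percentile in both lists stood 353 members, above the 90th stood 21, and below the 10th stood 48. Members were found on 20 chromosomes, with 5 to 103 on each, and the nearest 0 h peak was a median of 101176 bp away. A 0 h peak lay within 10 kb of 72 members.

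**Figure D2:**
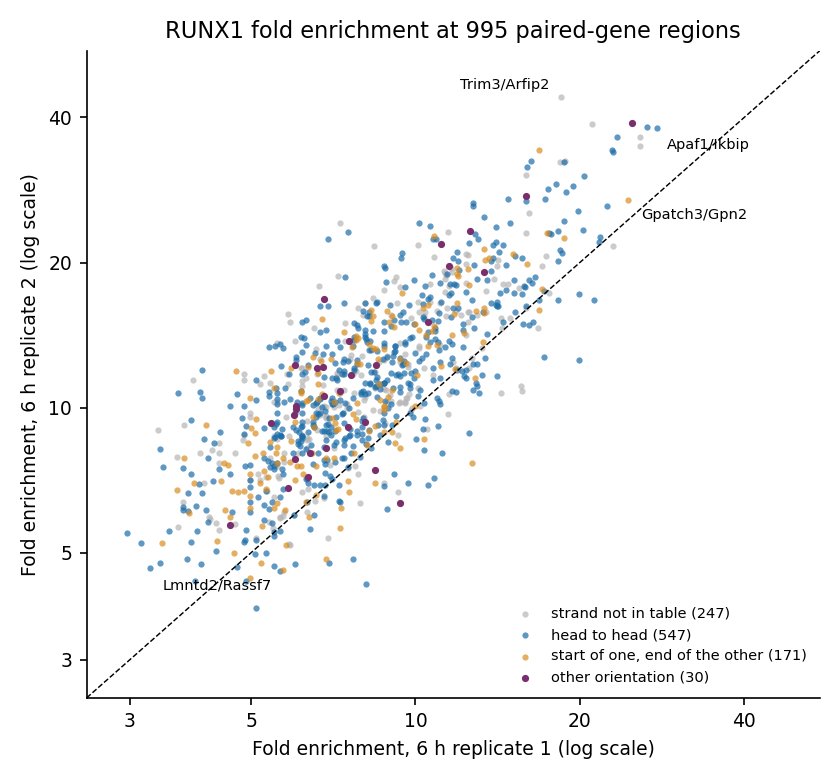
Fold enrichment of the 995 paired-gene regions in 6 h replicate 1 (horizontal) and replicate 2 (vertical), both on log axes, with 1 point per region and the diagonal of equal fold. Most points (883) lie above the diagonal, and the named pairs Apaf1/Ikbip and Trim3/Arfip2 stand at the upper end.

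The 10 members with the highest mean percentile joined genes of quite different roles. The region at the starts of Apaf1, the scaffold of the apoptosome in cell death, and Ikbip ranked first, with folds of 27.7 and 38.02 in replicates 1 and 2 and pileups of 103 and 122 (chr10:91082175-91083539). The region of Idh1, the cytosolic isocitrate dehydrogenase that makes NADPH, and Pikfyve, a phosphoinositide kinase of endosomes, had folds of 26.6 and 38.2 (chr1:65186394-65187203). Kat14, an acetyltransferase, and Pet117, an assembly factor of cytochrome oxidase, are read in the same direction, and their region had folds of 24.9 and 39.0 (chr2:144368707-144369688). These 3 regions stood above the 96th percentile in both lists.

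Wrn, a RecQ DNA helicase, and Purg shared a region whose summit lay between them, with folds of 25.8 and 36.4 (chr8:33385129-33385852). The region of Tppp3, a tubulin-binding protein, and Zdhhc1, a palmitoyltransferase, had folds of 25.7 and 34.9 (chr8:105471248-105471958). Ngly1, which strips N-glycans from misfolded proteins, and Oxsm, of mitochondrial fatty acid synthesis, overlapped at their starts and had folds of 23.4 and 36.4 (chr14:16249129-16249958). Strand was not in the table for at least 1 gene of the first 2 of these 3 pairs.

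Nudt1, which clears oxidised nucleotides, and Mad1l1, of the spindle checkpoint, had folds of 22.9 and 34.2 (chr5:140321387-140321984). Mrpl40, a mitochondrial ribosomal protein, and Hira, a histone chaperone, had folds of 23.0 and 33.9 (chr16:18876155-18877307). Kbtbd2, a substrate adaptor of a ubiquitin ligase, and Gm10209 had folds of 21.1 and 38.8 (chr6:56796866-56798088). Trim3, a ubiquitin ligase, and Arfip2 had the most unequal folds of the 10, 18.5 and 44.03 (chr7:105633546-105634139). Strand was not in the table for 1 gene of each of the last 2 pairs.

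The lowest 3 members were head-to-head pairs. Tepsin and Ndufaf8 had folds of 3.95 and 4.38 (chr11:120098522-120098795), Psmb3 and Pcgf2 had 3.41 and 4.75 (chr11:97703003-97703649), and Lmntd2 and Rassf7 had 3.27 and 4.64 (chr7:141215669-141216142). The first 2 pairs each held another member close by: a second Tepsin and Ndufaf8 region had folds of 5.10 and 3.84, and a second Psmb3 and Pcgf2 region had 5.64 and 4.58. The member with the most genes, 25, lay at the shared far ends of the protocadherin gamma genes, which encode neuronal adhesion proteins, beside Diaph1 (chromosome 18, 37842586 to 37842926). Its folds were 10.6 and 16.6, and its genes are 1 cluster counted many times.

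At the width limit, the regions just inside were Cactin and Pip5k1c at 1963 bp (folds 9.44 and 17.3), Nudt6 and Spata5 at 1930 bp (17.7 and 22.9) and Akt1s1 and Tbc1d17 at 1866 bp (9.30 and 8.76). Just outside it were Aamdc and Rsf1 at 2031 bp (9.14 and 18.8), Fam72a and Srgap2 at 2284 bp (9.96 and 12.4) and Zfp36l1 and Gm52006 at 2597 bp (8.03 and 24.3). At the distance limit, Rpl7 and Rdh10 (999 bp, folds 11.1 and 16.4) and Zbtb7b and Dcst2 (997 bp, 6.04 and 9.91) were inside. Rhoq and LOC115488765 (1002 bp, 10.6 and 13.3), Map11 and Gal3st4 (1002 bp, 7.42 and 9.74) and Tpi1 and Spsb2 (1003 bp, 7.04 and 5.61) were outside. The folds on the 2 sides of each limit overlapped.

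Among the arrangements, head-to-head members had median folds of 8.07 and 11.2 in replicates 1 and 2, and members where a start met a far end had 7.30 and 10.1. The 19 same-strand starts had 7.55 and 10.8, and the 11 tail-to-tail members had 6.40 and 9.91. The tail-to-tail members included Noct, the circadian protein nocturnin, with Elf2, an ETS factor (12.6 and 23.3), and Polr2l, an RNA polymerase subunit, with Cd151 (11.5 and 19.7). Median widths were 751 bp for head-to-head members and 560 bp for tail-to-tail ones. These medians order the groups within each library, and the folds of the groups overlapped widely.

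Paired-gene regions had the lowest median fold of the 6 h sets compared, in both libraries. Their median within-list percentile of fold was 41.4 in replicate 1 and 52.1 in replicate 2, and that of all replicated 6 h regions was 53.0 and 67.9. The 5242 6 h-only regions near a single coding gene had 45.4 and 55.9, and the 8040 6 h-only regions with no coding gene end within 1 kb had 49.0 and 70.2. Members were lower than the single-gene regions by 3.96 and 3.79 percentile points (mean -3.87 ± 0.12, SD, n = 2). The exact two-sided sign-flip permutation test over the 2 libraries gave p = 0.5, the smallest that n = 2 allows. Both libraries gave this direction on the replicated regions. With regions rebuilt from 6 h replicate 2 alone, which also changes the set of members (1269 regions), members were 0.71 points higher. Taking equal numbers of peaks per library left 5 members, which were 0.82 points higher. Members were a median of 712 bp wide, beside 631 bp for the single-gene regions. The median −log10 of the peak p-value placed members above the single-gene regions in both libraries: 30.35 and 43.3 beside 29.4 and 42.1. Regions with no coding gene end had 28.0 and 53.8, and all replicated regions had 32.3 and 54.3.

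The 262 regions with the same placing that overlapped a 0 h peak, and so were not members, had median 6 h folds of 12.6 and 19.3 (percentiles 77.1 and 83.5) and a median width of 1094 bp. Members stood 35.6 and 31.4 percentile points below them (mean -33.5 ± 2.997, SD, n = 2, exact sign-flip permutation p = 0.5, the smallest possible). Both libraries gave this direction, and since members were chosen for lacking a 0 h call, the part of that choice in the difference was not tested. Of the 1257 regions under 2000 bp near 2 or more coding genes, members and non-members together, 79.2% lacked a 0 h peak (interval 76.8 to 81.4). Of 6394 single-gene regions, 82.0% did (interval 81.0 to 82.9). The 2 intervals touched, and no test was made on regions, which are not replicates.

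Head-to-head starts were bound more often than lone starts in every library, when all coding genes with a known strand were counted. A start was taken as bound where a peak summit lay within 1 kb. In 6 h replicate 1, 73.9% of 2025 head-to-head genes had such a peak, beside 31.4% of 14072 genes with no other coding end nearby. For 6 h replicate 2, 82.0% of head-to-head and 38.3% of lone genes were bound. In 0 h replicate 1 the values were 3.31% and 1.17%, and in 0 h replicate 2 they were 18.9% and 6.39%. Head-to-head shares were thus 2.36 and 2.14 times the lone shares in the 6 h libraries, and 2.82 and 2.96 times in the 0 h libraries. The difference was 42.5, 43.7, 2.14 and 12.5 percentage points, higher for head-to-head genes in 4 of 4 libraries, with a mean of 25.2 points over both times. The same peak calls chose the members, so these values are a description, with no test. Where head-to-head starts lie close together, a peak at the partner's start can also count for a gene. With summits within 200 bp the ratios were 2.34 and 2.15 at 6 h. This narrower count does not remove the sharing: 750 of the head-to-head genes overlapped their partner at the start, and 963 had 0 to 300 bp between.

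Far ends were bound much less often. Within 1 kb of the far end of the same head-to-head genes, 4.89% and 6.47% had a 6 h peak, and 2.56% and 3.37% for lone genes. GC content moved with the arrangement, with a median of 61.3% around head-to-head starts and 55% around lone ones. Head-to-head shares were above lone shares within each of 4 GC ranges at 6 h: 54.0% and 64.5% beside 6.06% and 7.95% below 50% GC, 66.5% and 74.1% beside 28.5% and 37.0% at 50 to 60%, 80.0% and 88.7% beside 56.6% and 66.9% at 60 to 70%, and 86.3% and 92.9% beside 61.7% and 72.7% above that. By distance between the starts, the 6 h shares were 72.3% and 80.4% where the genes overlapped, 79.1% and 87.7% at 0 to 300 bp, 74.9% and 81.7% from there to 1000 bp, and 40.5% and 47.1% for the 121 genes beyond that. The last class was the lowest in both libraries, beside 31.4% and 38.3% of lone genes. Whether fewer shared peaks played a part was not tested. The intervals of the first 2 classes did not overlap in either library. Both genes of a pair are counted and can share a peak, so these intervals are too narrow to separate the classes. With the same number of peaks taken from each library, 948, the mean 6 h difference between head-to-head and lone starts was 1.47 points, still in the same direction.

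**Figure D3:**
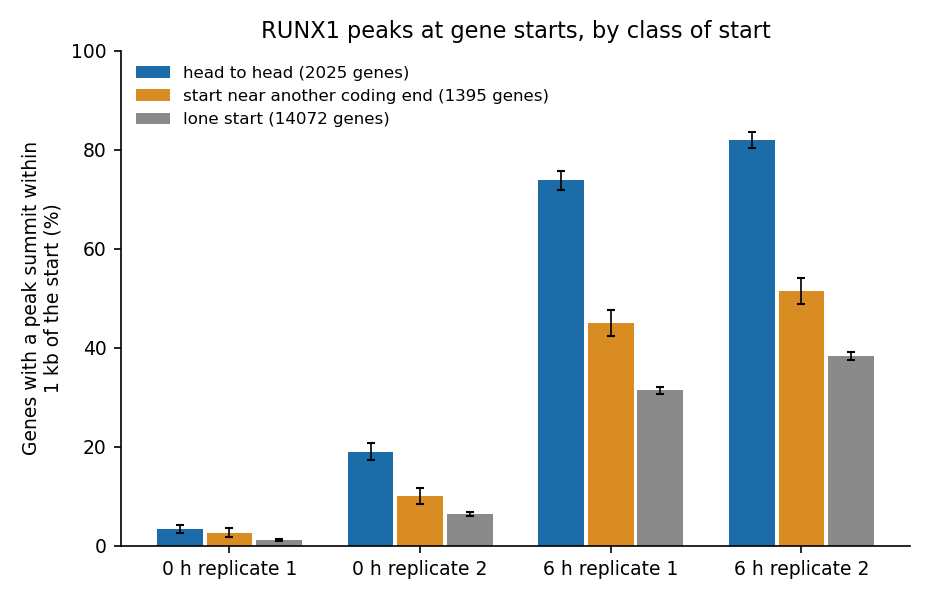
Percentage of genes with a peak summit within 1 kb of the start in each of the 4 libraries, for head-to-head starts, starts near another coding end and lone starts, with 95% Clopper-Pearson intervals. Head-to-head starts are the highest of the 3 in every library, reaching 73.9% and 82.0% at 6 h. Both genes of a pair are counted and can share a peak, so the intervals of head-to-head starts are too narrow.

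Counted by pair, the share with a 6 h region differed widely between arrangements. Of 1005 head-to-head pairs with ends within 2 kb, 691 (68.8%) had a replicated 6 h region and 520 (51.7%, interval 48.6 to 54.9) had a member. Of 1049 tail-to-tail pairs, 17 (1.62%) had a region and 14 (1.33%, interval 0.73 to 2.23) had a member. Of 43 pairs with same-strand starts, 24 (55.8%, interval 39.9 to 70.9) had a region, an interval that overlapped that of the head-to-head pairs (65.8 to 71.6). Where a start met a far end, 210 of 975 pairs (21.5%) had a region and 180 (18.5%) had a member. Of 57 pairs with same-strand ends, 1 (1.75%) had a region. The largest class, 1712 pairs, could not be placed because at least 1 strand was not in the table. Of these, 602 (35.2%) had a region and 545 (31.8%) had a member. The intervals of the head-to-head and tail-to-tail pairs did not overlap.

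Sequence around the summits was compared in the 300-base promoter windows of the table (250 bases before the start and 50 after it) that held a summit. The motif shares are descriptions, and windows that share bases are not independent. A RUNX core (TGTGGT or TGCGGT, both strands) was present in 25.9% of 772 member windows, 25.5% of 2119 windows at single-gene 6 h-only regions, 37.4% of 235 windows at paired-gene regions with a 0 h peak, and 21.6% of all 21263 coding promoters. The intervals of the first 2 overlapped. The coding promoters were not picked for holding a summit: over all 1926 promoter windows of genes near members, picked or not, the share was 21.9% (interval 20.1 to 23.8), close to that of all coding promoters. The form TGTGGT alone was in 12.4% of member windows and 15.0% of all coding promoters, and TGCGGT alone was in 14.5% and 7.44%. The members' GC content, a median of 64.0% beside 56.3% for all coding promoters, moved with this. Single-gene windows had TGTGGT in 13.4% and TGCGGT in 13.4%, and paired-gene windows with a 0 h peak had them in 11.9% and 27.2%. Within the range of 60 to 70% GC, the RUNX share was 22.7% for members, 25.98% for single-gene windows, 41.3% for paired-gene windows with a 0 h peak and 20.9% for all coding promoters. In that range TGCGGT was in 13.5% of member windows and 10.8% of coding promoters, a smaller contrast than without matching, and TGTGGT was in 10.1% and 11.2%.

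The ETS core CCGGAAG was in 31.5% of member windows (interval 28.2 to 34.9), 22.1% of single-gene windows (20.3 to 23.9) and 11.6% of all coding promoters. Within 60 to 70% GC it was in 34.8%, 24.5% and 19.6%. Paired-gene windows with a 0 h peak had it in 37.9%, and in 40.6% within that GC range. Over all promoter windows of genes near members, whether or not they held a summit, it was in 23.9%. The CRE TGACGTCA, the site of CREB, a factor that acts downstream of cAMP, was in 7.51%, 3.92% and 2.23%. Within 60 to 70% GC it was in 8.94%, 3.64% and 3.496%. Paired-gene windows with a 0 h peak had it in 5.96%, and in 7.25% within that range. All promoter windows of genes near members had it in 4.36%. GGGCGG, the box of SP and KLF factors, was in 72.5% of member windows and 78.0% of single-gene ones, and within 60 to 70% GC in 78.3% and 81.9%. The AP-1 site TGANTCA was in 2.202% and 4.25%. Between member and single-gene windows, the intervals did not overlap for the ETS, CRE and SP/KLF letters and overlapped for AP-1. Within 60 to 70% GC they also overlapped for SP/KLF.

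RUNX matches were densest at the summit. In members, RUNX cores occurred 1.83 times per 1000 positions within 25 bp of the summit, 0.82 at 50 to 100 bp and 0.63 at 200 to 300 bp. In single-gene regions the same distances had 1.61, 0.93 and 0.60. ETS cores in members were at 1.56 within 25 bp, 1.61 at 25 to 50 bp, 1.49 at 50 to 100 bp and 0.65 at 200 to 300 bp. In single-gene regions the same distances had 0.98, 1.17, 1.31 and 0.50. The ETS density was thus not highest within 25 bp of the summit in either set. In paired-gene regions with a 0 h peak it was 2.94 within 25 bp and 2.17 at 25 to 50 bp.

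**Figure D4:**
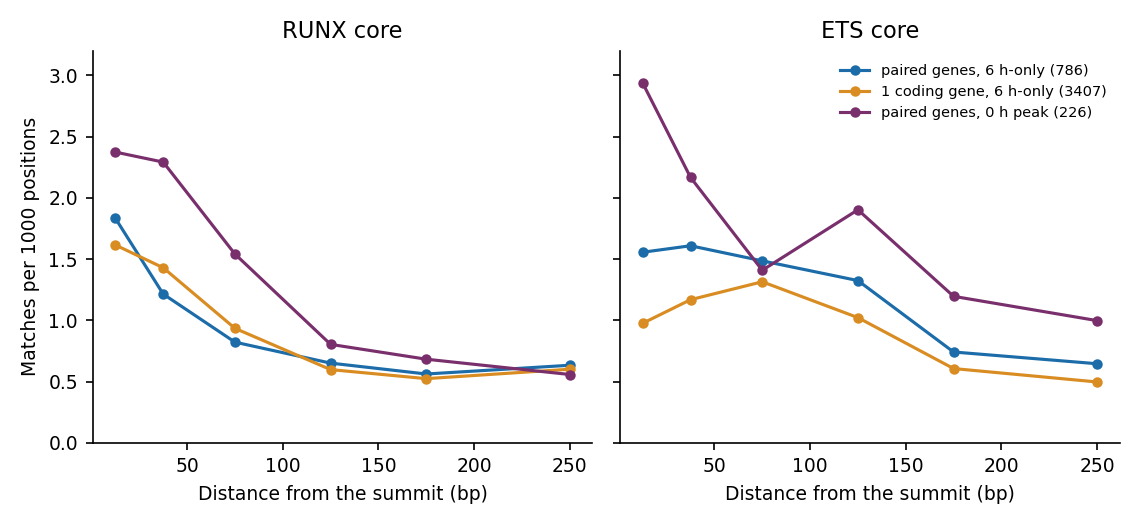
Matches per 1000 positions (vertical axis) of the RUNX and ETS cores by distance from the summit (horizontal axis, bp), for paired-gene regions, single-gene 6 h-only regions and paired-gene regions with a 0 h peak. RUNX matches in members fall from 1.83 next to the summit to 0.63 at 200 to 300 bp.

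Members lay near 1888 coding genes, 8.62% of the 21900 in the table. Only genes with another coding end within 2 kb could be near a member, and of those 7061, 26.7% were. For each gene list below, the share of the whole list is followed by the share of its genes with such a neighbour, and no list was tested for enrichment. The lists were assembled from gene symbols with earlier results known.

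Replicated 6 h regions of any kind, members or not, lay near 37.2% of all coding genes, and that share is also given for the lists described first. Of 73 DNA repair genes, 21 were (28.8%), or 42.9% of those with a close neighbour, and 63.0% had a 6 h region of any kind. Xrcc4, of non-homologous end joining, with Tmem167, had folds of 17.3 and 27.1 (chr13:90089113-90090171), and Xrcc3, of recombination, with Zfyve21, had 18.4 and 21.3 (chr12:111813082-111814744). Chek2, a checkpoint kinase, with Hscb, had 15.5 and 17.7. Among replication genes 10 of 43 were near a member (23.3%, or 45.5% of those with a close neighbour) and 74.4% had any 6 h region. They included Cdc45, of the replicative helicase, with Ufd1 (16.1 and 18.4), Dbf4, the activator of the CDC7 kinase, with Slc25a40 (12.8 and 22.9), and Mcm4, a helicase subunit, with Prkdc, a repair kinase (13.4 and 15.8).

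Of 78 mitochondrial ribosomal protein genes, 25 were near a member (32.1%), out of 50 with a close neighbour, and 66.7% had any 6 h region, with Mrpl40 and Hira the highest and Mrpl51 with Ncapd2, a condensin subunit, next (15.9 and 16.2). Of 98 respiratory chain and ATP synthase genes, 24 were (24.5%, then 40% of 60) and 62.2% had any 6 h region, led by Ndufs8, of complex I, with Aldh3b1 (16.8 and 15.9). Of 79 chaperonin and heat shock genes, 16 were (20.3%, then 42.1%) and 67.1% had any 6 h region, such as Cct5, of the cytosolic chaperonin, with Atpsckmt (14.3 and 17.3).

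The cytosolic ribosomal, polymerase, splicing, synthetase and histone lists had higher shares than all coding genes by each of these measures. Of them, 79.1% of the cytosolic ribosomal, 78.9% of the polymerase and Mediator, 75.6% of the splicing, 66.7% of the synthetase and 63.7% of the histone genes had any 6 h region. Of 86 cytosolic ribosomal protein genes, 15 were near a member (17.4%, then 34.1%), led by Rpl7a with Med22, a Mediator subunit (17.6 and 23.1), and Fau with Mrpl49 (15.7 and 14.9), whose pileup of 217 was the highest among members in replicate 1. RNA polymerase and Mediator genes had 13 of 57 (22.8%, then 31.7%), splicing genes 15 of 82 (18.3%, then 34.1%) and aminoacyl-tRNA synthetases 7 of 36 (19.4%, then 38.9%). Among the splicing genes, Hnrnpd, an RNA-binding protein, had folds of 18.1 and 29.0 and Snrpd3, a core snRNP protein, with Gucd1 had 14.8 and 27.1. Histone genes had 26 of 102 (25.5%, then 47.3%) at 15 regions, such as H3c10 with H2ac13 (17.1 and 17.6). Histone copies are near identical, and whether reads that fit several places were kept is not given in the sources used here, so their values are uncertain.

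The broader lists and those of signalling and adhesion varied. Members of the Tmem series had 35 of 235 (14.9%, then 33.3%). Translation factors had 9 of 71 (12.7%, then 24.3%), proteasome genes 5 of 49 (10.2%, then 20%) and ubiquitin ligase and conjugation genes 23 of 254 (9.06%, then 23.5%). These 3 lists stood above the 8.62% of all genes and below the 26.7% of genes with a close neighbour. Protocadherin, olfactory and keratin genes had 21 of 1288 (1.63%, then 28.8%), all at the protocadherin gamma region. Solute carriers had 26 of 342 (7.602%, then 22.4%), and cyclins and cyclin-dependent kinases 2 of 49 (4.08%, then 12.5%), below both shares. Zinc finger genes had 32 of 464 (6.90%), below that of all genes, but 29.6% of those with a close neighbour, above 26.7%. Of 20 genes of the growing follicle 1 was near a member, Hsd17b1, an estradiol-making enzyme, beside Naglu, with folds of 5.42 and 7.86 (chr11:101078160-101078468). Of 20 genes of the ovulatory response none was near a member, and none has another coding end within 2 kb, so none could be. Replicated 6 h regions of any kind lay near 9 of those 20 genes (45%) and near 35% of the growing follicle list, beside 37.2% of all coding genes and 71.4% of the cyclin list.

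**Figure D5:**
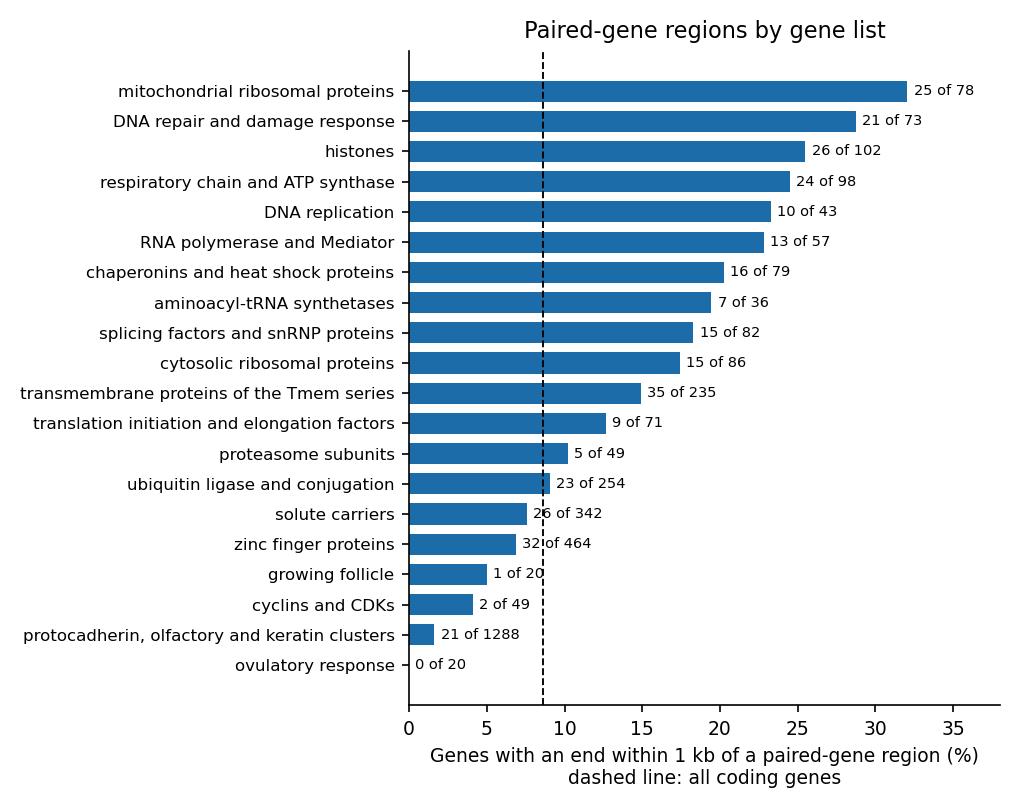
Percentage of the genes in each list with an end within 1 kb of a paired-gene region (horizontal axis), with the number of genes of the total beside each bar, starting at 0. The dashed line is the share of all coding genes, 8.62%, and mitochondrial ribosomal protein genes are the highest list at 32.1%.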

How the data were processed

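RUNX1 ChIP-seq peak lists of 4 libraries (RUNX1_0h and RUNX1_6h, 2 each) were used as the authors deposited them. Reads were mapped with Bowtie2 2.2.5 and peaks called with MACS2 on mm10, per the submitters' processing notes; the pooled inputs entered only through those calls. The deposited lists give, per peak, a score (not used), the fold enrichment as a ratio over local background, the −log10 of the p-value and the −log10 of the q-value. No depth or MACS2 setting is given in the sources used here. Pileups were recovered from fold and −log10 p under MACS2's Poisson model, with a misfit under 0.005.

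Peaks were merged (overlap of at least 1 bp) and members chosen as the report states. The members and gene lists were chosen with earlier results of these data known. Coding genes, strands and promoter sequences came from RefSeq on GRCm38.p6, which is the build of mm10. Genes named are the 10 highest and 3 lowest members by mean percentile of fold, the member with the most genes, up to 3 per list, the ovulatory and follicular genes, and the regions at the limits; the tail-to-tail examples, the second regions of low pairs, and the RUNX-core stretches were chosen after their values were seen. Percentiles were taken within each list. Differences between sets of regions within each library were tested by exact sign-flip permutation over the libraries, and shares have Clopper-Pearson 95% intervals. Python 3.11.15, numpy 2.4.6, pandas 2.3.3 and scipy 1.17.1 were used, and the scripts were tested on simulated data. Alternatives covered the q-value limit, overlaps, distances, list length, summit choice, width and left-out libraries. A region at the distance limit is not reported here.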

Additional observations from a re-analysis of the deposited data

How the results depend on the processing

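The member count of 995 stayed within 1.5 times of itself under 11 of 12 other settings, and was 997 to 1269 when each library was left out in turn. With equal numbers of peaks per library (948), there were 5 members; their median percentile was 98.6, the difference from single-gene regions was 0.82 points in the other direction, the width was 1130 bp, the head-to-head share was 100% (of 4 with known strands), the summit lay between the genes in 40%, and a RUNX core was in 20% of promoters. A limit of 20 on the −log10 q gave a median percentile of 64.0, a width of 863 bp and a head-to-head share of 78.0%. A distance of 500 bp gave a head-to-head share of 81.7%, and 2 kb gave 62.1%. Leaving out libraries gave median percentiles of 38.7 to 52.5, differences of -4.29 to 0.71 (reversed without 6 h replicate 1), widths of 509 to 777 bp, head-to-head shares of 72.1% to 75.1%, between-gene shares of 17.2% to 18.5% and RUNX shares of 21.3% to 22.2%. The RUNX share of 21.9% in promoters of member genes (21.6% of all coding promoters) was 11.5% for TGTGGT alone (15.0%) and 3.17% for TGTGGTT (4.71%). The head-to-head minus lone difference in bound starts at 6 h, a mean of 43.1 points, was 27.8 within 200 bp, 38.4 at the stricter q, 1.47 at equal list lengths, 42.5 to 43.7 with 1 library, and 22.4 to 52.2 within GC ranges; these alternatives were chosen after seeing the data. The cause of these changes was not tested. No paired analysis was possible because members need a peak of both 6 h libraries and no 0 h peak, so no time comparison was tested on them. Read depth is unknown, and faint 0 h binding cannot be seen in the lists.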

Other observations

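Non-coding genes were less often close to members than to single-gene 6 h-only regions: 48 of 995 members (4.82%, Clopper-Pearson interval 3.58 to 6.35) had a non-coding gene end within 1 kb, beside 819 of 5242 (15.6%, interval 14.7 to 16.6). Of the 1005 microRNA hairpins in the table, 10 lay within 1 kb of a member. A hairpin was that close to 10 of 995 members (1.01%, interval 0.48 to 1.84) and to 43 of 5242 single-gene regions (0.82%, interval 0.59 to 1.10), so the intervals overlapped. The highest folds among these were at Mir8116, near Ache, the enzyme that breaks down acetylcholine, and Ufsp1 (15.1 and 20.8), and at Mir6924, near Kctd11 and Acap1 (12.4 and 18.1). Mir6936 was 91 bp from the summit at Sirt7, a deacetylase, and Mafg, a small MAF protein (5.18 and 6.98).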
